A study of Rattus norvegicus with 36 samples.

Results

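The comparison set the response of the adult rat heart to 4 weeks of training against the response of the juvenile heart to the same length of training. The response at 24 weeks was later exercise minus sedentary, the response at 9 weeks was early exercise minus sedentary, and their difference (24-week response minus 9-week response, on the log2 scale) was calculated for each probe. It set 28 of the 36 arrays of the series against each other, 7 in each of 4 groups. The 8 arrays of rats trained early and killed at 24 weeks entered no difference, but they were in the fit and so helped set the estimate of spread behind each p.

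All rats were male Wistar Kyoto offspring of sham-operated mothers with a normal litter size, and 1 array was run per rat on RNA from the powdered whole heart, which mixes all its cell types. Later exercise rats ran on a treadmill between 20 and 24 weeks of age and were killed at 24 weeks, and their sedentary counterparts were killed at 24 weeks. Early exercise rats ran between 5 and 9 weeks and were killed at 9 weeks, and their sedentary counterparts were killed at 9 weeks. Both trained groups were killed 72 h after the last bout. Brothers could be placed in different groups, and the labels do not give the litter. No rat was shared between the responses at the 2 ages.

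Endurance training makes the heart grow, and the growth is accompanied by changes in metabolism, matrix and vessels. In the juvenile rat the heart is still growing with the body. Among the signals that steer growth and matrix are the bone morphogenetic proteins, activins and transforming growth factors, which bind paired type I and type II receptors and act through Smad proteins. Interferons are a separate signal of innate defence: through transcription factors such as Irf9 they switch on antiviral genes and the machinery that loads peptides onto MHC class I molecules.

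A probe was kept when its detection score reached 0.95 on at least 7 of the 36 arrays, which left 10956 of 22523 probes. The markers of heart muscle were present, as 13 cardiomyocyte genes had a mean normalized signal of 13.31 to 13.62 (log2) on the 28 arrays. The trained and sedentary groups of 24 weeks differed in the brightness of the arrays before normalization, at a mean raw signal of 315 to 709 (median 578) in later exercise and 715 to 1307 (median 897) in sedentary rats. At 9 weeks the groups overlapped, with medians of 762 in early exercise and 815 in sedentary rats. A length score, the mean of very long transcripts minus that of ribosomal protein genes, had a median of -3.97 in later exercise and -3.46 in sedentary rats of 24 weeks, and -3.89 in early exercise and -3.55 in sedentary rats of 9 weeks. Each of the 3 chips held rats of all groups. Brightness was tested as a covariate only. As it separated the groups of 24 weeks, such a fit cannot tell brightness from training at that age. Values with brightness in the fit are given for the calls and for some of the gene lists and genes, and others may have moved as much.

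Most probes that passed in the difference of responses fell with training in the adult heart. At the looser thresholds of the study, more probes were higher (419) than lower (347) in that difference. Of 10956 probes, 16 (0.146%) differed between the 24-week and the 9-week response at an adjusted p below 0.05 (limma, Benjamini-Hochberg over all probes), 14 of them lower (0.128%) and 2 higher (0.0183%) in the adult response. All 16 were detected on all 28 arrays and had the same sign on each of the 3 chips. They were picked for their difference on these same arrays, so a shared sign is no independent check. That difference contains the 24-week response, so the same choice favours passing or lying apart at 24 weeks. The shares of all probes that follow are given for scale and are no added support. All 16 passed in the 24-week response, as did 12.4% of all probes. At 9 weeks no probe of the array passed (0%), so a 9-week response that did not pass sets these 16 apart from no other probe. By the size of the 2 responses, 5 of the 16 moved in opposite directions by at least 0.2 each, 11 moved further at 24 weeks, and 0 moved further at 9 weeks. In 11 of the 16 the later exercise and sedentary arrays of 24 weeks did not overlap (1.44% of all probes), and in 0 of them did the groups of 9 weeks separate (0.183% of all probes). In 7 of them (Bmpr2, Itga1, Add3, and probes listed in the study's tables as Ptprb, LOC501637, LOC501548 and LOC290704) every later exercise array lay outside the range of all 21 other arrays (0.42% of all probes).

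These calls lay close to the threshold. A block for the chip raised the number of calls in the training by age interaction to 59 (21 higher, 38 lower), all 16 included. Fitting the 4 groups alone left 7 calls, 6 of them among the 16. A covariate for mean raw brightness left 0 calls in limma (smallest adjusted p = 0.358). With brightness in the fit the 16 kept their sign at unadjusted p of at most 0.00356. Leaving out 1 array at a time, a check added after the values were seen, gave 0 to 60 calls, while all 16 kept their sign each time at unadjusted p of at most 0.00018. The count was 0 without sedentary replicate 3 or early exercise replicate 6 of 9 weeks and without sedentary replicate 1 or 6 of 24 weeks, and 60 without later exercise replicate 7. At an unadjusted p below 0.05 there were 1437 probes (13.1%), 526 higher (4.8%) and 911 lower (8.32%). At the thresholds the study used, an unadjusted p of 0.05 with a fold limit, there were 766 (6.99%), 419 higher (3.82%) and 347 lower (3.17%). Scaling the arrays to a common median moved the median difference of all probes to -0.35, and read against that shift all 16 kept their direction. The 16 were picked on these same arrays, so signs kept in these refits are largely set by that choice and are no independent support.

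**Figure D1:**
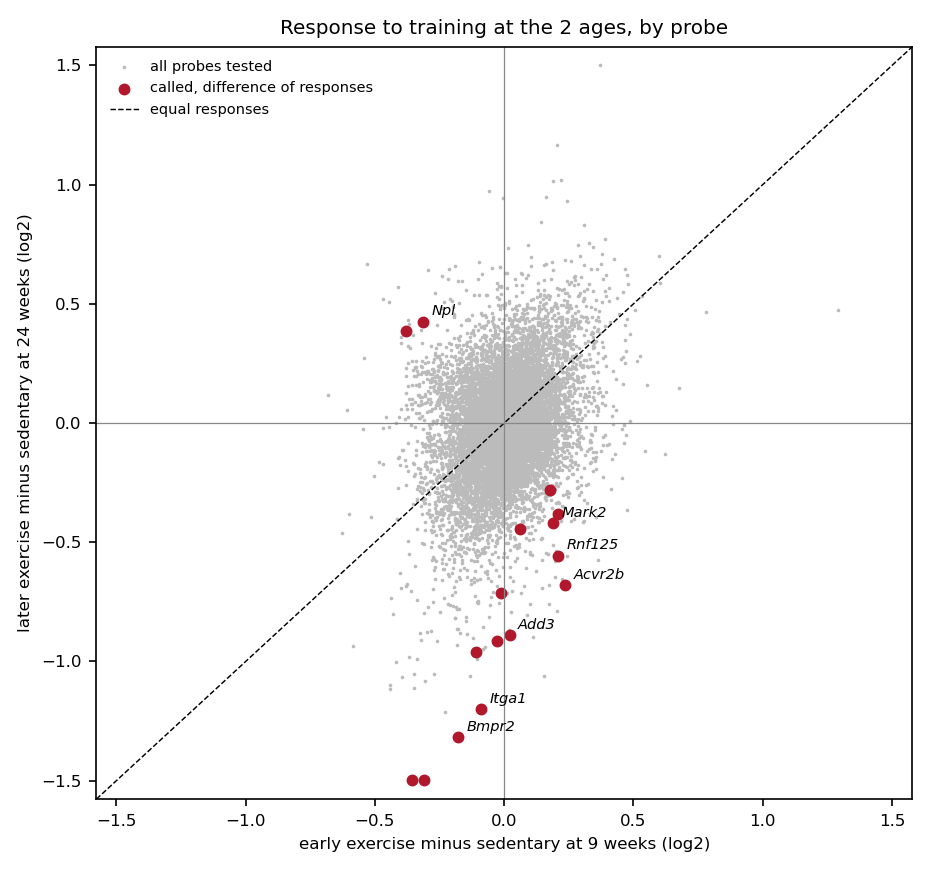
Response to training at 24 weeks (vertical axis, later exercise minus sedentary, log2) against the response at 9 weeks (horizontal axis, early exercise minus sedentary, log2) for 10956 probes, 7 rats in each of the 4 groups. Grey points are all probes, red points the 16 that passed in the difference of responses, and the dashed line marks equal responses. Of the red points 14 lie below the line and 2 above it, between -0.38 and 0.24 on the horizontal axis.

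Among the 16 were 2 receptors of the bone morphogenetic protein and activin family. Bmpr2, the type II receptor for bone morphogenetic proteins, had a log2 signal of 8.19 to 9.14 (median 8.52) in later exercise and 9.58 to 10.21 (median 9.88) in sedentary hearts of 24 weeks. Hearts of 9 weeks had 9.15 to 9.79 (median 9.40) in early exercise and 9.39 to 9.81 (median 9.52) in sedentary rats. The adult groups were separate, the juvenile groups overlapped, and every later exercise heart was below every other heart. The adult signal was 0.401 times that of sedentary rats and the juvenile signal 0.883 times, a difference of responses of -1.14 (standard error 0.23, 95% interval -1.61 to -0.67, limma adjusted p = 0.0347). It was -1.60, -0.99 and -0.75 on chips 1, 2 and 3.

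Acvr2b, the type IIB receptor that binds activins and myostatin, moved in opposite directions at the 2 ages. Its log2 signal was 6.60 to 7.79 (median 7.59) in later exercise and 7.79 to 8.23 (median 8.08) in sedentary hearts of 24 weeks. In hearts of 9 weeks it was 7.72 to 8.20 (median 8.05) after early exercise and 7.22 to 8.05 (median 7.73) in sedentary rats. The adult groups met at their edge, and the juvenile groups overlapped widely. The adult response was -0.68 (0.624 times) and the juvenile response 0.24 (1.18 times, unadjusted p = 0.0895), and the difference of -0.92 (standard error 0.19) passed with an adjusted p of 0.0347 in limma, though it was only -0.28 on chip 1 against -1.11 and -1.40 on chips 2 and 3.

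Few other genes of this pathway differed between the ages. Of 41 genes listed for bone morphogenetic protein and transforming growth factor signalling, 29 were tested, 2 of them passed (0.146% of all probes), and both were the receptors above. With these 2 receptors included, 5 lay lower at an unadjusted p below 0.05 (17.2% of the list, 8.32% of all probes) and 0 higher (4.8% of all probes). Smad4, the partner that all these Smads share, had a difference of -0.30 (standard error 0.11, adjusted p = 0.227), the type I receptor Bmpr1a one of -0.42 (standard error 0.18, adjusted p = 0.324), and the ligand Tgfb2 one of -0.45. The median of the list was 0.01, beside -0.02 over all 7904 genes, and 15 of its 29 genes lay above 0.

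**Figure D2:**
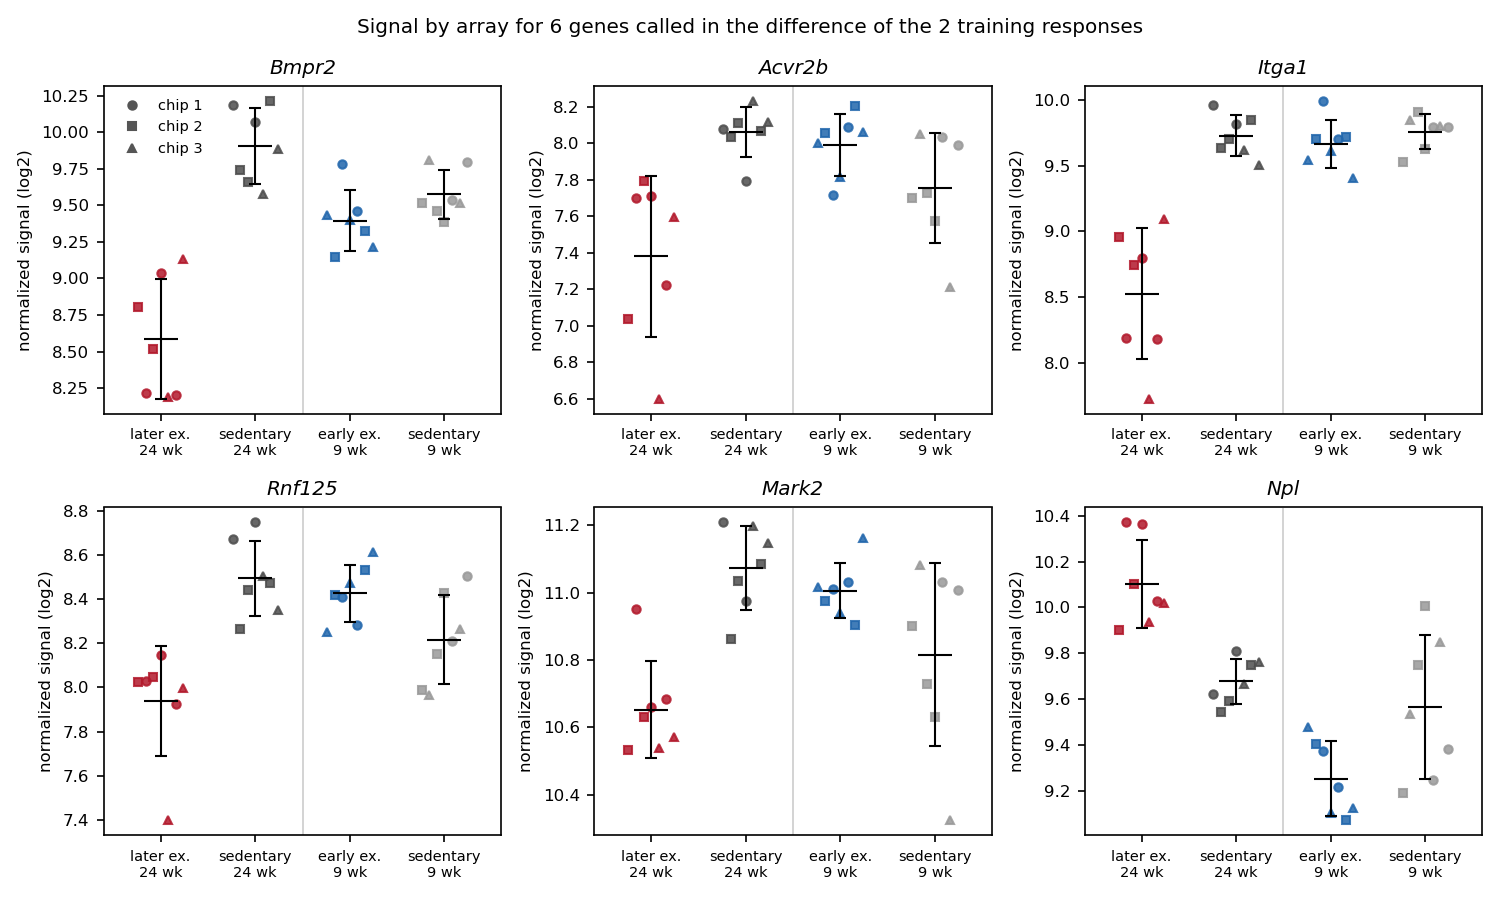
Normalized log2 signal of 6 of the genes that passed, for 28 hearts in 4 groups (from left, later exercise and sedentary at 24 weeks, early exercise and sedentary at 9 weeks). Points are single rats with their shape giving the chip, and bars are the mean and SD of 7 rats. Bmpr2 and Itga1 in later exercise hearts lie below all other hearts, and Npl is higher in later exercise and lower in early exercise hearts than in their sedentary groups.

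Itga1, the integrin chain that pairs with beta 1 integrin to bind collagen, fell in adult hearts and hardly moved in juvenile hearts. Its log2 signal was 7.73 to 9.10 (median 8.74) in later exercise and 9.50 to 9.96 (median 9.70) in sedentary hearts of 24 weeks. At 9 weeks it was 9.40 to 9.99 (median 9.70) in early exercise and 9.52 to 9.91 (median 9.79) in sedentary hearts. The other 3 groups overlapped, and the later exercise hearts lay below all of them. The adult signal was 0.435 times and the juvenile signal 0.940 times that of sedentary rats, a difference of -1.11 (standard error 0.23, adjusted p = 0.0347 in limma).

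Add3, a gamma adducin that ties spectrin to actin under the membrane, followed the same course, with 8.17 to 9.21 (median 8.72) in later exercise and 9.26 to 10.11 (median 9.52) in sedentary hearts of 24 weeks. The hearts of 9 weeks averaged 9.68 ± 0.17 after early exercise and 9.66 ± 0.23 when sedentary (SD, n = 7 each). The difference of responses was -0.91 (standard error 0.19, adjusted p = 0.0347 in limma). Tab2, an adaptor that brings the kinase Tak1 to ubiquitin chains, had 0.735 times the sedentary signal in adult and 1.04 times in juvenile hearts, a difference of -0.51 (standard error 0.11). Senp6, a protease that removes SUMO chains, had 0.610 times in adult and 0.992 times in juvenile hearts, a difference of -0.70 (standard error 0.15). The adult groups of Tab2 did not overlap, and those of Senp6 overlapped at their edge.

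Of the called genes, 4 fell with training in adult hearts and stood higher, at an unadjusted p below 0.05, after training in juvenile hearts. At 9 weeks 7.92% of all probes had such a p in either direction, and none passed. These genes were picked for a low difference, which favours a high 9-week response, so their juvenile rise is no independent result. Rnf125, a ubiquitin ligase known to act on the RNA sensor Rig-I, had the smallest p of all probes. Its log2 signal was 7.40 to 8.15 (median 8.02) in later exercise and 8.27 to 8.75 (median 8.47) in sedentary hearts of 24 weeks, with no overlap. Juvenile values were 8.25 to 8.61 (median 8.42) in early exercise and 7.97 to 8.5 (median 8.21) in sedentary rats. The adult signal was 0.680 times and the juvenile signal 1.16 times that of sedentary rats, and the difference was -0.77 (standard error 0.14, adjusted p = 0.0276 in limma). The juvenile groups overlapped, and trained adult hearts reached into the range of sedentary juvenile hearts.

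Mark2, a kinase that sets cell polarity by acting on microtubule-associated proteins, had 10.53 to 10.95 (median 10.63) in later exercise and 10.86 to 11.21 (median 11.09) in sedentary hearts of 24 weeks. At 9 weeks it had 10.91 to 11.16 (median 11.01) in early exercise and 10.32 to 11.08 (median 10.90) in sedentary hearts. One later exercise heart, at 10.95, reached into the sedentary range. The responses were 0.747 and 1.14 times, and the difference was -0.61 (standard error 0.12, adjusted p = 0.0347 in limma). Fbxl20, a substrate-binding F-box protein of a ubiquitin ligase, had responses of 0.767 times in adult and 1.16 times in juvenile hearts (difference -0.59, standard error 0.13, adjusted p = 0.0464). For Prcc, a nuclear protein linked to splicing, the responses were 0.823 and 1.13 times (difference -0.46, standard error 0.10, adjusted p = 0.0396).

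Npl was the only gene with a symbol that passed in the other direction. It encodes N-acetylneuraminate lyase, which splits free sialic acid. Its log2 signal was 9.90 to 10.37 (median 10.03) in later exercise and 9.54 to 9.81 (median 9.66) in sedentary hearts of 24 weeks, without overlap. The 9-week hearts had 9.07 to 9.48 (median 9.21) after early exercise and 9.19 to 10.01 (median 9.53) when sedentary. Npl was picked for its high difference, which favours a low 9-week response. With that limit, training went with 1.34 times the sedentary signal in adults and 0.805 times in juveniles (unadjusted p = 0.0107 at 9 weeks in limma). The difference was 0.74 (standard error 0.16, adjusted p = 0.0464 in limma). The probe ILMN_1650367, which has no symbol, behaved likewise, with responses of 1.31 and 0.769 times and a difference of 0.77 (standard error 0.16).

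The remaining 4 called probes without a symbol in the annotation carry a name in the study's tables alone. LOC501637 had 0.354 times the sedentary signal in adult and 0.806 times in juvenile hearts. LOC501548 had 0.354 times in adult and 0.781 times in juvenile hearts. LOC290704 had 0.530 times in adult and 0.981 times in juvenile hearts. The Ptprb probe, for a phosphatase of the endothelium, had 0.513 times in adult and 0.928 times in juvenile hearts, a difference of -0.85 (standard error 0.18, adjusted p = 0.0347 in limma). None of these 4 had overlapping groups at 24 weeks.

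Another 4 genes were next by p among those higher in the adult response, and none passed. Gamt, which makes creatine in its last step, had 8.84 to 9.29 (median 9.01) in later exercise and 8.05 to 8.80 (median 8.21) in sedentary hearts of 24 weeks. At 9 weeks it had 7.87 to 8.71 (median 8.43) in early exercise and 8.03 to 8.55 (median 8.34) in sedentary hearts. The adult groups were separate and the juvenile groups overlapped, with responses of 1.66 and 1.01 times and a difference of 0.72 (standard error 0.16, adjusted p = 0.0505 in limma). Msrb2, a mitochondrial enzyme that repairs oxidized methionine, had a difference of 0.49 (adjusted p = 0.0669), the kinase Uhmk1 one of 0.64 (adjusted p = 0.0696), and the mast cell protease Mcpt4 one of 0.61 (adjusted p = 0.0837).

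Interferon-response and MHC class I genes stood on opposite sides of the sedentary level at the 2 ages. Of 34 such genes tested out of 41 listed, 33 had a difference of responses above 0, against 3619 of all 7904 genes (45.8%). The list had a median difference of 0.39 (median of all genes -0.02), made up of a median of 0.20 at 24 weeks, where 30 of 34 genes lay above 0, and of -0.21 at 9 weeks, where 29 lay below 0. No single member passed (smallest adjusted p = 0.102), and 9 lay higher at an unadjusted p below 0.05 (26.5% of the list, against 4.8% of all probes). These genes share regulators and move together between rats, so their number does not count independent observations.

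The core of the interferon-stimulated response element, 2 copies of GAAA with any 2 bases between them, was looked for on both strands of RefSeq promoters (build GRCr8, 250 bases before to 50 after the start). It was found in 17 of the 29 list members with a promoter in that set (58.6%), beside 1312 of all 33469 promoters (3.92%), and overlapping matches counted once per promoter. A list member counted if any of its promoters held a match, so the 2 shares have unlike units. RT1-M6-2, Stat2 and RT1-A1, with the smallest p of the list, had no match. The list was drawn up as interferon-response genes, so its share is no result of training. A match is a description of the sequence and no evidence of binding. Stretches of 60 bases before the start are shown for the 4 members with a match there and the smallest p in the difference of responses. They give the reader the element these 4 share, with the matching letters in capitals. Irf7, Tap1 and Ifit3 carry the match on the other strand, so in the printed letters it reads as 2 copies of TTTC.
Irf7 (chr1:205800058-205800117, minus strand): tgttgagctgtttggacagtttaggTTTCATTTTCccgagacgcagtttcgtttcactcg
Ifi27 (chr6:128355203-128355262, plus strand): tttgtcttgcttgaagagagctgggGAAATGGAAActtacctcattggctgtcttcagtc
Tap1 (chr20:4668630-4668689, minus strand): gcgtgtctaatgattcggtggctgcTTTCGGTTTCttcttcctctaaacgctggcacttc
Ifit3 (chr1:241527257-241527316, plus strand): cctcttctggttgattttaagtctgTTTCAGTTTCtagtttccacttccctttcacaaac

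Irf7, the transcription factor that amplifies the interferon response, had a response of 0.43 at 24 weeks and -0.37 at 9 weeks (difference 0.80, unadjusted p = 0.0346). Tap1, which carries peptides into the endoplasmic reticulum for MHC class I, had 0.20 and -0.38 (difference 0.57). The antiviral genes Ifit3 and Mx1 had differences of 0.67 and 0.80, where Mx1 was mainly lower in juvenile hearts (response -0.68 at 9 weeks and 0.12 at 24 weeks). Ifi27 had 0.14 and -0.27 (difference 0.41). In all 5 genes the adult response was above 0 and the juvenile response below it, and none of the 5 differences passed. These 5 were picked with their values known, so their shared pattern is no independent support. Over the whole list 25 of 34 genes had this pattern, against 1572 of all 7904 genes.

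Stat2, a transcription factor of the interferon response that acts with Irf9, was measured at a log2 signal of 7.20 to 7.90 (median 7.61) in later exercise and 6.70 to 7.87 (median 6.94) in sedentary hearts of 24 weeks. At 9 weeks it had 7.04 to 7.96 (median 7.48) in early exercise and 7.61 to 8.02 (median 7.83) in sedentary hearts. By median, the sedentary hearts of the 2 ages were further apart than the trained ones, and the groups overlapped at both ages. The difference of responses was 0.77 (standard error 0.22, adjusted p = 0.137 in limma), and 0.46 with brightness as a covariate. RT1-M6-2, a gene of the MHC class I region, had 1.53 times the sedentary signal in adult and 0.846 times in juvenile hearts (difference 0.86, standard error 0.23, adjusted p = 0.102). The classical class I heavy chain RT1-A1 had 1.08 and 0.801 times (difference 0.43, adjusted p = 0.181), and the interferon-induced Ifi27l2b 1.60 and 0.936 times (difference 0.77, adjusted p = 0.214). Probes for RT1 genes may share signal, since these genes are near-identical copies.

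**Figure D3:**
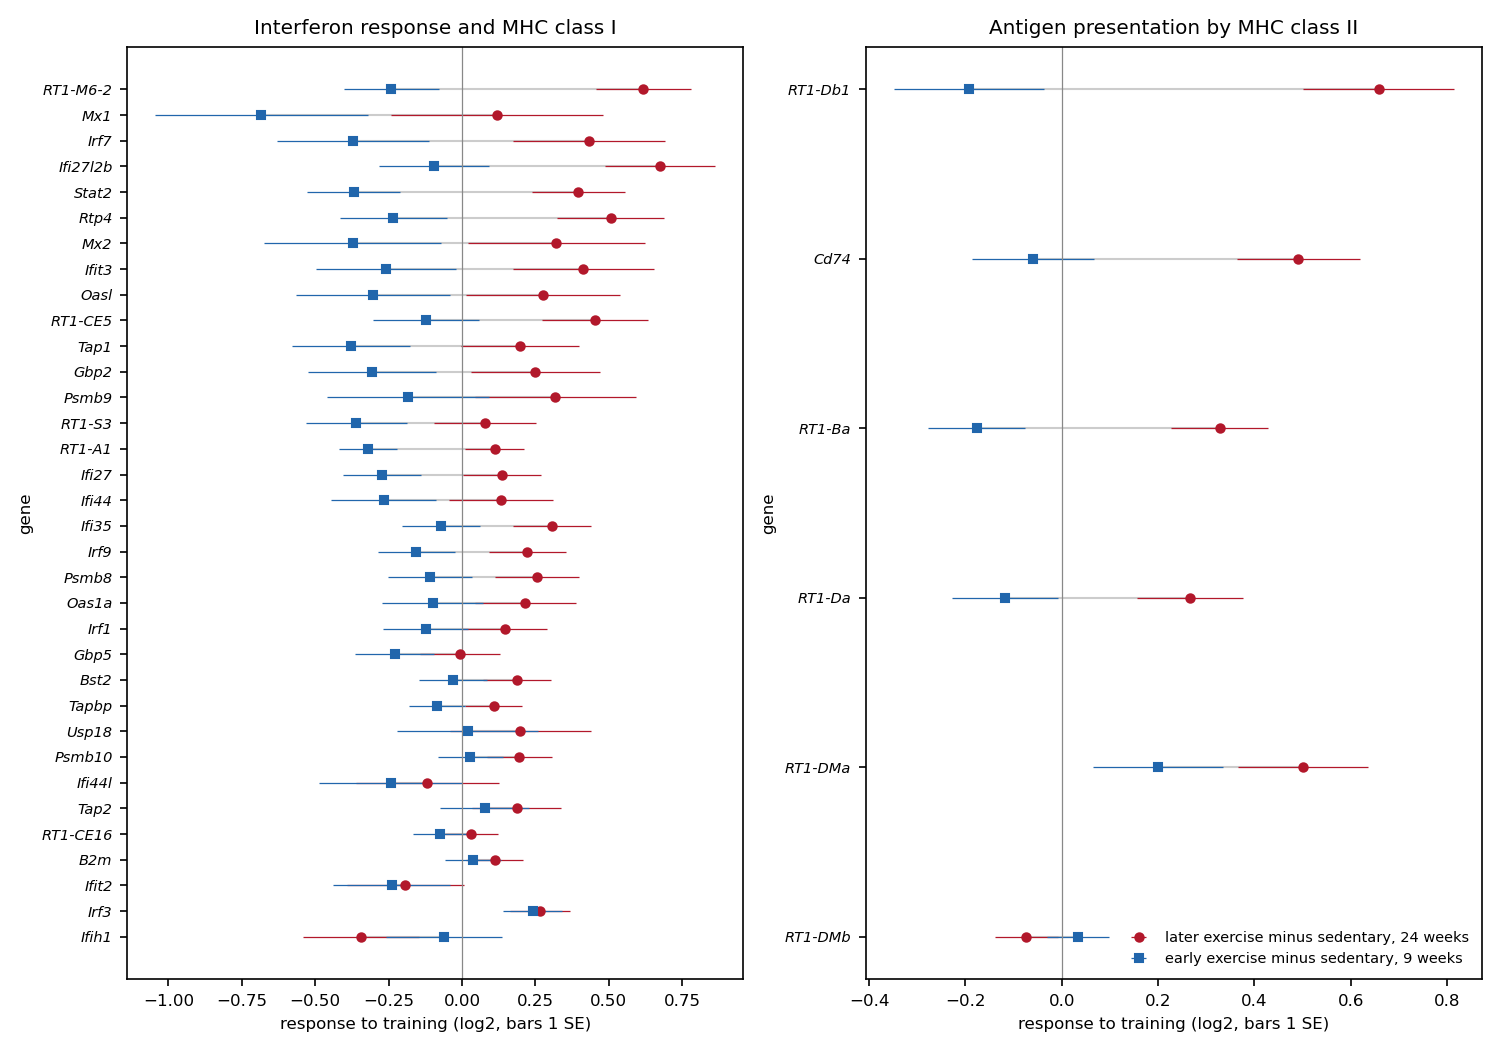
Response to training (log2) of each interferon-response and MHC class I gene (left, 34 genes) and each MHC class II gene (right, 6 genes), with red circles for 24 weeks and blue squares for 9 weeks. Bars are 1 standard error from the fit, 7 rats per group. Red lies right of blue for 33 of 34 genes on the left and for 5 of 6 on the right.

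Averaged over the list, the log2 signal was 8.80 to 9.40 (median 9.16) in later exercise and 8.70 to 9.19 (median 8.91) in sedentary hearts of 24 weeks. It was 8.63 to 9.74 (median 9.44) in early exercise and 9.12 to 9.74 (median 9.60) in sedentary hearts of 9 weeks. Groups overlapped at both ages, and the early exercise hearts spread over the widest range of the 4 groups. The difference of the group means was 0.62, 0.16 and 0.53 on chips 1, 2 and 3. The median difference of the list stayed between 0.28 and 0.46 with any 1 array left out. The lowest value came without early exercise replicate 5 of 9 weeks, where 30 of 34 genes lay above 0. With brightness as a covariate the list stood 0.26 above the median of all probes, in place of 0.41.

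MHC class II genes, which antigen-presenting cells use to show peptides to helper T cells, had a median difference above 0. Of 6 genes tested, 5 had a difference above 0 (median 0.44), 4 of them at an unadjusted p below 0.05 (4.8% of all probes), and 0 passed (smallest adjusted p = 0.0911). Their mean log2 signal was 9.85 to 10.20 (median 10.15) in later exercise and 9.62 to 9.82 (median 9.71) in sedentary hearts of 24 weeks. In hearts of 9 weeks it was 9.94 to 10.31 (median 10.13) in early exercise and 9.87 to 10.37 (median 10.20) in sedentary rats. The adult groups did not overlap, the juvenile groups did, and the sedentary adults were the lowest of the 4 groups. The median stayed between 0.38 and 0.51 with any 1 array left out, but with arrays scaled to a common median it stood 0.25 above the median of all probes in place of 0.46, below the cardiomyocyte (0.51), red blood cell (0.49), lymphocyte (0.34) and interferon (0.32) lists. With brightness as a covariate it stood 0.39 above.

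RT1-Db1, a class II beta chain, had 9.34 to 10.34 (median 10.08) in later exercise and 8.88 to 9.64 (median 9.42) in sedentary hearts of 24 weeks. The hearts of 9 weeks had 9.61 to 10.37 (median 10.15) in early exercise and 9.50 to 10.61 (median 10.44) in sedentary rats. The difference was 0.85 (standard error 0.22, adjusted p = 0.0911 in limma), and 0.49 with brightness as a covariate. RT1-Ba, a class II alpha chain, had 1.26 times the sedentary signal in adult and 0.885 times in juvenile hearts (difference 0.50, adjusted p = 0.130), and Cd74, the invariant chain that escorts class II molecules, 1.41 and 0.960 times (difference 0.55, adjusted p = 0.181). Both of these genes and RT1-Db1 passed in the 24-week response, as did 12.4% of all probes, while no probe of the array passed at 9 weeks.

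**Figure D4:**
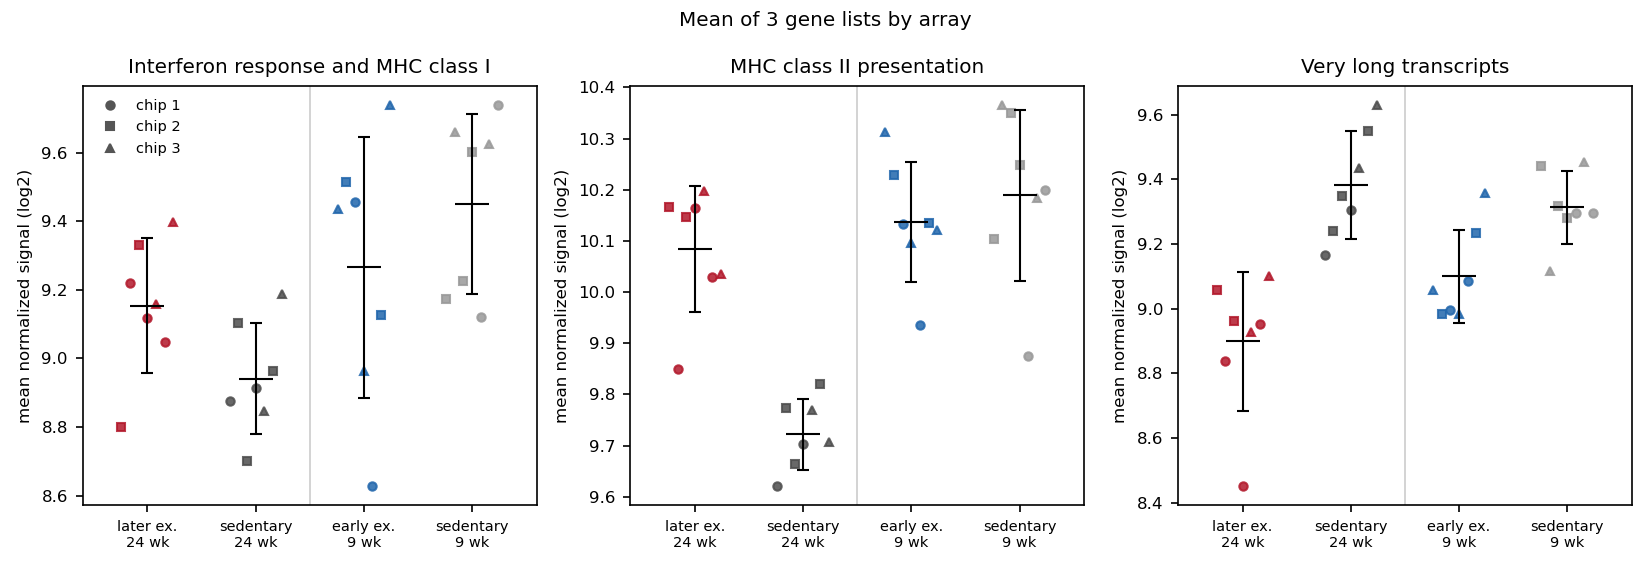
Mean normalized log2 signal of 3 gene lists in each of 28 hearts (from left in each panel, later exercise and sedentary at 24 weeks, early exercise and sedentary at 9 weeks). Points are rats with their shape giving the chip, and bars are the mean and SD of 7 rats. MHC class II is separate between the adult groups, interferon genes overlap at both ages, and very long transcripts are lower after training at both ages.

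Markers of immune and blood cells had smaller medians than the MHC class II and interferon lists. The 15 macrophage markers tested had medians of 0.16 at 24 weeks and 0.16 at 9 weeks and a median difference of 0.09, with 9 of 15 above 0. Their mean signal was 9.06 to 9.40 in later exercise and 8.92 to 9.23 in sedentary hearts of 24 weeks, and 8.96 to 9.28 in early exercise and 8.77 to 9.20 in sedentary hearts of 9 weeks. Of 15 lymphocyte markers listed 10 were tested, with a median difference of 0.05, and their means of 5.98 to 6.36 overlapped in all 4 groups. All 6 red blood cell markers tested had a difference above 0 (median 0.24), but the difference of their means was 0.49, -0.23 and 0.73 on the 3 chips. The 5 smooth muscle and pericyte markers tested had the lowest median of the marker lists (-0.30, 4 of 5 below 0), with -0.18, -0.25 and -0.26 on the 3 chips. Of these markers 2 lay lower at an unadjusted p below 0.05 (8.32% of all probes). The 9 endothelial markers had a median of -0.09, with 6 below 0, and the 13 cardiomyocyte markers one of 0.12, with 10 above 0. The part of these cells in the receptor, adhesion, vascular, interferon and MHC results was not tested, and in whole-heart RNA more cells of a type cannot be told apart from more RNA per cell.

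Adhesion genes lay on both sides of 0. Of 40 genes of integrins, the dystrophin complex and focal adhesions, 23 were tested, 1 passed (Itga1, against 0.146% of all probes), and 6 lay lower (8.32% of all probes) and 0 higher (4.8%) at an unadjusted p below 0.05. In all 10 lay above 0 and 13 below. Ptk2, the focal adhesion kinase, had 0.757 times the sedentary signal in adult and 1.21 times in juvenile hearts (difference -0.67, standard error 0.22, adjusted p = 0.182 in limma), with chip values of 0.03, -1.11 and -0.99, and a difference of -0.31 with brightness as a covariate. Pkp2, a desmosome protein that joins cardiomyocytes end to end, had 0.769 and 0.966 times (difference -0.33), and Dmd, dystrophin, 0.716 and 0.930 times (difference -0.38). The list stood -0.03 from the median of all probes, but -0.13 with brightness as a covariate and -0.10 without later exercise replicates 3 and 5.

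Collagen and matrix genes gave no call. Of 50 genes listed, 37 were tested and 0 passed in limma, with 4 lower (10.8% of the list, 8.32% of all probes) and 2 higher (5.41%, against 4.8%) at an unadjusted p below 0.05. These shares were near those of all probes, and the members below are given as values. Loxl2, which crosslinks collagen, had 5.74 to 7.49 (median 6.58) in later exercise and 7.49 to 8.06 (median 7.87) in sedentary hearts of 24 weeks. It stood at 8.48 to 8.96 (median 8.74) in early exercise and 8.75 to 9.00 (median 8.85) in sedentary hearts of 9 weeks. Juvenile hearts were above adult hearts throughout, and the trained and sedentary hearts overlapped at both ages, among adults at their edge. The difference of responses was -0.93 (standard error 0.26, adjusted p = 0.118 in limma), and -0.58 with brightness as a covariate. The short-chain collagen Col8a1 and the basement membrane collagen Col4a1 had differences of -0.61 and -0.38. The fibrillar collagen Col3a1 went the other way, with 1.44 times the sedentary signal in adult and 0.981 times in juvenile hearts (difference 0.56, adjusted p = 0.342).

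Of 30 calcium handling and ion channel genes tested, 7 lay lower in the adult response at an unadjusted p below 0.05 (8.32% of all probes), 0 lay higher (4.8%) and 0 passed in limma. The bicarbonate transporter Slc4a4 had 5.50 to 6.71 (median 5.77) in later exercise and 6.62 to 7.46 (median 7.04) in sedentary hearts of 24 weeks, and its probe was detected in 3 of 7 later exercise hearts. After early exercise it had 6.93 to 7.35 (median 7.11), against 7.03 to 7.53 (median 7.08) in sedentary hearts of 9 weeks. The later exercise hearts had the lowest values and overlapped slightly with sedentary ones, with a difference of -0.89 (standard error 0.24, adjusted p = 0.115 in limma). Kcnd3, a channel of the transient outward potassium current that starts repolarization, had 0.622 times the sedentary signal in adult and 0.981 times in juvenile hearts (difference -0.66, adjusted p = 0.133). Kcnd2, another channel of that current, had 0.536 and 0.921 times (difference -0.78, adjusted p = 0.158). Cacna2d1, a calcium channel subunit, had 0.545 times in adult and 0.813 times in juvenile hearts. All 4 passed in the 24-week response, as did 12.4% of all probes, while no probe of the array passed at 9 weeks. All 4 also passed in the mean of the 2 responses (9.37% of all probes). The list median of -0.02 equalled that of all genes.

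Among 24 vascular growth genes tested, 5 lay lower (8.32% of all probes) and 0 higher (4.8%) at an unadjusted p below 0.05, and 0 passed in limma. The list stood -0.06 from the median of all probes and -0.16 with brightness as a covariate. Endothelial markers stood -0.07 from it and -0.20 with brightness, and smooth muscle and pericyte markers -0.29 and -0.15. Notch1, a receptor that sets the fate of vessel and muscle cells, had 7.59 to 8.64 (median 8.04) in later exercise and 8.51 to 8.88 (median 8.66) in sedentary hearts of 24 weeks. It had 8.71 to 9.06 (median 8.80) in early exercise and 8.01 to 9.11 (median 8.75) in sedentary hearts of 9 weeks. The responses were 0.671 and 1.11 times, a difference of -0.72 (standard error 0.20, adjusted p = 0.119 in limma). The semaphorin and Vegf co-receptor Nrp1 had a difference of -0.41, and the ligands Vegfc and Pgf had -0.41 and -0.43. The Pgf probe was detected in 4 of 7 later exercise hearts.

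Energy genes gave no call in the difference of responses. Of 56 oxidative phosphorylation genes, 32 lay above 0 (median 0.04). At an unadjusted p below 0.05, 4 lay higher (7.14%, against 4.8% of all probes) and 1 lower (1.79%, against 8.32%). Cox4i1, a subunit of cytochrome c oxidase, had 1.30 times the sedentary signal in adult and 1.00 times in juvenile hearts (difference 0.38, adjusted p = 0.306), with -0.01, 0.51 and 0.66 on the 3 chips. Of 40 genes of fatty acid uptake and oxidation, 20 lay above 0 (median 0.00).

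The coactivators that drive mitochondrial and fatty acid genes were among the 4 of that list lower at an unadjusted p below 0.05 (10%, against 8.32% of all probes). A further 2 were higher (5%, against 4.8%). These shares were near those of all probes, and the members below are given as values. Ppargc1b had 5.40 to 6.10 (median 5.54) in later exercise and 6.06 to 6.62 (median 6.26) in sedentary hearts of 24 weeks, and 5.98 to 6.34 (median 6.13) in early exercise and 6.23 to 6.33 (median 6.30) in sedentary hearts of 9 weeks. Its probe was detected in 1 of 7 later exercise hearts and in all others. The difference of responses was -0.55 (standard error 0.13, adjusted p = 0.0693 in limma). Ppargc1a had 0.549 times the sedentary signal in adult and 0.883 times in juvenile hearts (difference -0.69, standard error 0.26, adjusted p = 0.267). Acads, which starts the oxidation of short fatty acids, had 1.17 and 0.857 times (difference 0.45, adjusted p = 0.130), and Cpt2, which hands fatty acids to the oxidation enzymes, 0.810 and 0.954 times.

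Insulin-like growth factor, Akt and mTOR genes steer physiological growth of the heart, and 27 were tested (list median -0.07). At an unadjusted p below 0.05, 2 lay higher (7.41%, against 4.8% of all probes) and 3 lower (11.1%, against 8.32%). These shares were near those of all probes, and the members below are given as values. The growth factor Igf2 had 10.61 to 11.17 (median 10.86) in later exercise and 10.93 to 11.44 (median 11.23) in sedentary hearts of 24 weeks. Juvenile hearts had 11.44 to 12.08 (median 11.93) in early exercise and 11.52 to 11.94 (median 11.73) in sedentary rats. All juvenile hearts were at 11.44 or above and all adult hearts at 11.44 or below, and the responses were 0.791 times in adults and 1.09 times in juveniles, a difference of -0.46 (standard error 0.13, adjusted p = 0.130 in limma). Pdpk1, which switches on Akt, had a difference of -0.47, Tsc2, a brake on mTOR, -0.67, and Igfbp6, which binds Igf2, 0.38.

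Genes with very long transcripts and ubiquitin ligase genes had medians below 0 at both ages, further so in adults. Of 15 very long transcripts tested, 14 had a difference below 0 (median -0.32), 8 of them at an unadjusted p below 0.05 (8.32% of all probes), and 0 passed. The medians were -0.47 at 24 weeks and -0.17 at 9 weeks. Akap9, which anchors protein kinase A to the centrosome and Golgi, had 0.583 times the sedentary signal in adult and 0.881 times in juvenile hearts (difference -0.60, standard error 0.17, adjusted p = 0.132 in limma), and Dync1h1, the heavy chain of dynein, 0.691 and 0.930 times. With the length score as a covariate, which is built from this list, the list stood -0.17 from the median of all probes in place of -0.30, and with brightness -0.26. Of 26 ubiquitin ligases and deubiquitinases, 18 were below 0 (median -0.19), against 4285 of all 7904 genes, and 6 lower at an unadjusted p below 0.05 (8.32% of all probes), among them Ubr2 (difference -0.41), Ube4a (-0.38), Cul3 (-0.34) and Herc2 (-0.36). The part of RNA quality in these lists was not tested.

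**Figure D5:**
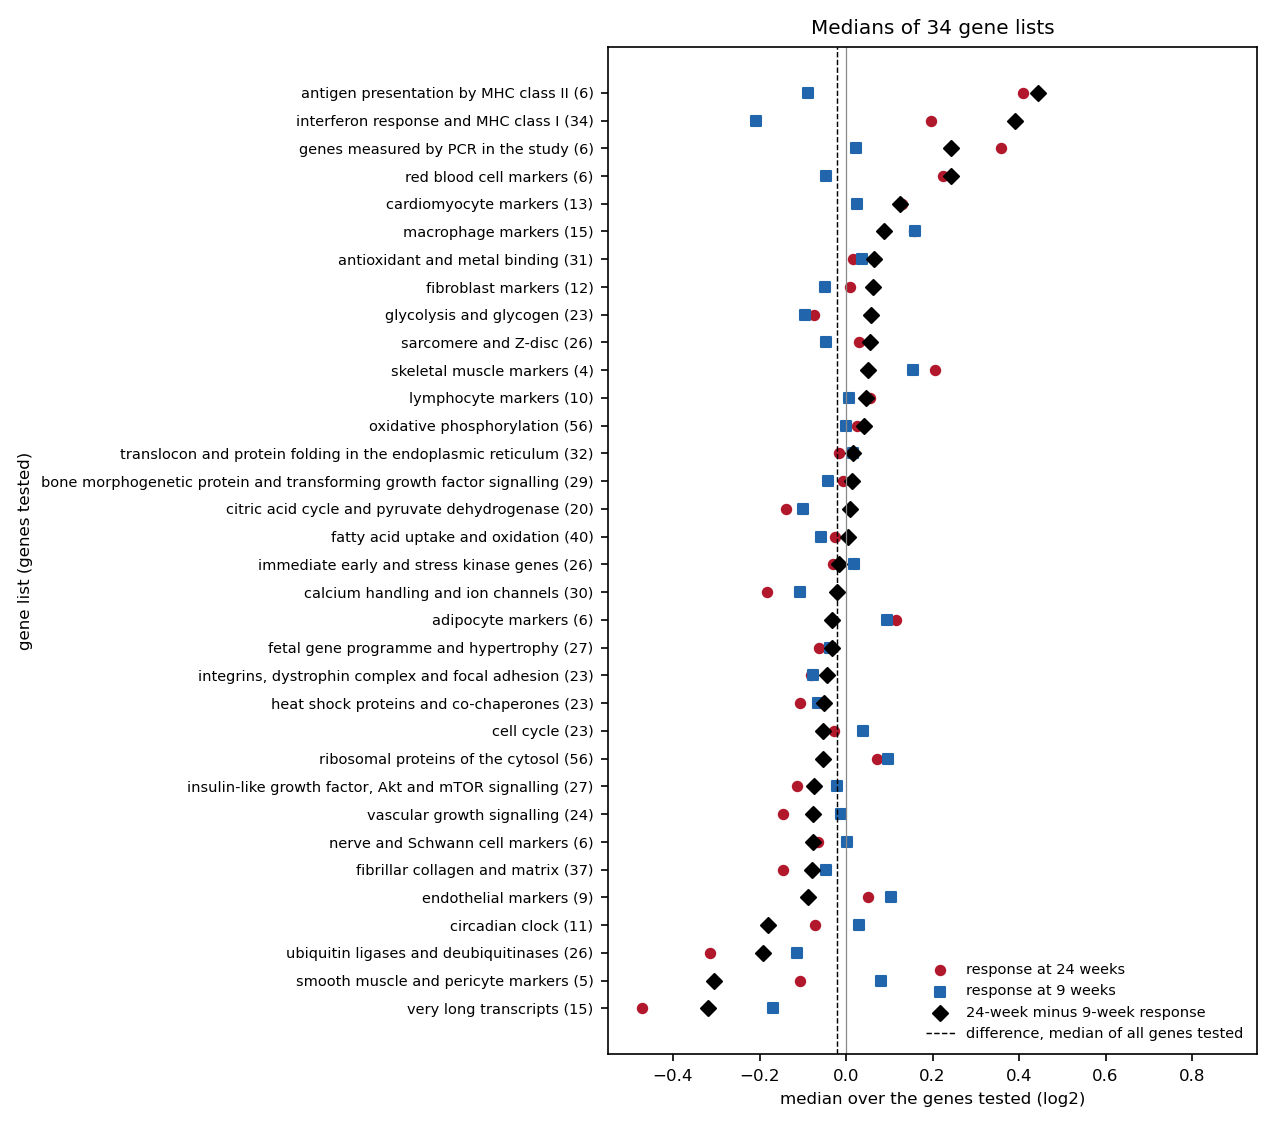
Median log2 response over the tested genes of each of 34 gene lists (number of genes in brackets), at 24 weeks (red circles), at 9 weeks (blue squares) and as the 24-week minus the 9-week response (black diamonds). The dashed line is the median difference of all 7904 genes, -0.02. The MHC class II and interferon lists have differences of 0.44 and 0.39 and very long transcripts -0.32 in this normalization.

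The genes the study measured by PCR were not called in the difference of responses. The study chose them for their change after exercise at 24 weeks on these same arrays. Their list stood 0.26 above the median of all probes, and 0.12 above it with brightness as a covariate. That place is largely set by the choice of the genes and is no independent result. Spp1, osteopontin, a matrix protein of injured and inflamed hearts, had 7.66 to 11.80 (median 10.18) in later exercise and 9.08 to 12.31 (median 11.09) in sedentary hearts of 24 weeks. It had 6.56 to 9.05 (median 7.32) in early exercise and 6.74 to 9.00 (median 7.64) in sedentary hearts of 9 weeks. Adult hearts were mostly above juvenile hearts, single rats of a group differed by several log2 units, and the difference of -1.11 had a 95% interval of -2.41 to 0.19 (adjusted p = 0.468 in limma). Rhoa, a GTPase of the actin skeleton, had 1.43 times the sedentary signal in adult and 1.24 times in juvenile hearts (difference 0.21, 95% interval -0.18 to 0.60). Sod3, the superoxide dismutase outside cells, had 1.40 times in adult and 1.03 times in juvenile hearts (difference 0.44, adjusted p = 0.278), and Ckm, muscle creatine kinase, 1.26 and 1.04 times. Of the 3 Actb probes, the brightest had a difference of 0.04 and the others 0.50 and 0.39, none past the threshold.

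The mean of both responses was tested as a shared response. It has a smaller standard error than their difference by construction (0.07 against 0.14 for Rnf125), so the counts of calls cannot be compared, and a probe can pass on its adult response alone. The mean of the 2 responses passed for 1027 probes (9.37%), 432 higher (3.94%) and 595 lower (5.43%), while the 24-week response alone passed for 1356 (12.4%; 2875 at an unadjusted p below 0.05, 26.2%) and the 9-week response for 0 in limma (0%; 868 at an unadjusted p below 0.05, 7.92%). Across probes, which are not independent replicates, the 2 responses correlated with a Pearson r of 0.30 and a Spearman rho of 0.26, and 58.4% had the same sign. At an unadjusted p below 0.05 in both, 164 probes were higher at both ages (1.5%), 132 lower at both (1.2%) and 41 opposite (0.374%). The 1027 calls of the shared training response became 357 with brightness and 55 with the length score as a covariate.

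Dynlt1, a light chain of dynein, had nearly equal responses. Its log2 signal was 9.58 to 10.21 (median 9.79) in later exercise and 9.14 to 9.74 (median 9.43) in sedentary hearts of 24 weeks, and 9.88 to 10.23 (median 10.11) in early exercise and 9.24 to 9.83 (median 9.65) in sedentary hearts of 9 weeks. The juvenile groups were separate, and the responses of 1.37 and 1.36 times differed by 0.01 (95% interval -0.28 to 0.31). Other genes that rose in the mean of both ages were Card19, which carries a caspase recruitment domain (1.34 times in adults, 1.21 times in juveniles), the glutathione transferase Gstp1 (responses of 0.59 and 0.33, log2), the peptide hormone precursor Pomc (1.78 and 1.24 times) and Rangrf, which helps sodium channels reach the membrane (1.26 and 1.19 times). Genes that fell were Cpd, a carboxypeptidase of the secretory pathway (0.594 and 0.827 times), the RNA-binding Larp4b (0.614 and 0.780 times), Cacna2d1 (0.545 and 0.813 times), the corepressor Ctbp2 (0.681 and 0.851 times) and Bmpr2 (0.401 and 0.883 times, unadjusted p = 0.282 at 9 weeks). Of these 10, Bmpr2 alone also passed in the difference of responses, and Cpd came close (difference -0.48, standard error 0.11, adjusted p = 0.0552 in limma).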

How the data were processed

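Hearts of 36 rats were hybridized to Illumina RatRef-12 beadchips, 1 array per rat and 7 per group in the comparison. The signal intensity the authors deposited for each probe is the scanner summary, with no background correction or normalization. A detection score, labelled a p-value in the deposited header, increases with signal and was therefore taken as 1 minus that p. The deposited log2 values, which the authors made with R 3.2.2 and limma 3.24.15 per the submitters' notes, were used here as they stand. They lie within 0.0417 of intensity values corrected by normexp (offset 16) and quantile normalized here. The authors' methods name lumi and an analysis of variance at an unadjusted p of 0.05 and folds below 0.75 or above 1.25. At those thresholds 766 probes (6.99%) passed in the difference of responses, 419 higher and 347 lower.

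One linear model of the 5 group means was fitted to all 36 arrays with limma 3.58.1 (R 4.3.3), with moderated variances, and p was adjusted by Benjamini-Hochberg across the 10956 probes at 0.05. Intervals are 95% from that fit. The fit was also run on data simulated with independent noise and no difference in brightness. That run cannot show how brightness or genes that move together bear on the calls. Of 22523 probes, 13793 carry 1 symbol and 8730 none, and 13752 symbols were matched to a current reference. Genes were named if among the 10 largest passing differences each way (where fewer than 5 passed, the 5 smallest p), the 5 smallest p of each class of passing genes, the 4 smallest p of a described list, the genes of the study's PCR, or the 5 smallest p each way of the shared response. Other members were named after their values were seen. Each gene stands in a list by its brightest probe. Members, the 34 lists and the tests were chosen with earlier results of these data known.

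Alternatives were the signal normalized here, no background correction, a common median, no or a stricter detection filter (21 arrays), chip and replicate number as blocks, only the 4 groups, no moderation, array weights, brightness and length score as covariates, later exercise replicates 3 and 5 left out, and, added after seeing the data, each array left out in turn. The labels give 3 chips of 12 arrays and the methods describe 6 arrays per beadchip, so what the labelled chip stands for is unsettled, and chip values and the chip block follow the labels. The number of arrays limits the precision.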

Additional observations from a re-analysis of the deposited data

Results flagged for a closer look

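The difference between the 24-week and the 9-week training response was itself tested and passed for 16 probes (0.146% of those tested). It was lower in the adult response for LOC501637 (-1.19), LOC501548 (-1.14), Bmpr2 (-1.14), Itga1 (-1.11), Acvr2b (-0.92), Add3 (-0.91), LOC290704 (-0.89), the Ptprb probe (-0.85), Rnf125 (-0.77), Senp6 (-0.70), Mark2 (-0.61), Fbxl20 (-0.59), Tab2 (-0.51) and Prcc (-0.46). It was higher for ILMN_1650367 (0.77) and Npl (0.74).

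Single hearts lay far from the other 6 of their group for some of the named genes. Of 312 groups examined 15 (4.81%) held such a heart, and chance alone marks about 1 group in 20. Later exercise replicate 5 was low for Rnf125 (7.40), LOC290704 (9.67) and Prcc (10.71), replicate 2 high for Mark2 (10.95), replicate 6 low for Bmpr1a (6.81) and replicate 1 high for Pgf (6.87). Among sedentary hearts of 24 weeks, LOC290704 was high in replicate 1 (11.75), Ctbp2 high in replicate 7 (10.63), Pgf high in replicate 5 (6.73) and Col3a1 high in replicate 4 (9.98). Early exercise replicate 7 of 9 weeks was high for Notch1 (9.06) and low for Gstp1 (10.85). Among sedentary hearts of 9 weeks, replicate 6 was low for Prcc (10.83) and high for the Actb probe ILMN_1355039 (13.14), and replicate 5 was low for RT1-Da (11.90).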

How the results depend on the processing

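The count of 16 probes in the training by age interaction depended on the processing. It was 3456 (3 higher) with arrays scaled to a common median, where the median of all probes moved to -0.35, 1 with no detection filter, which adjusts over more probes, 59 with chip as a block, 7 with only the 4 groups, 29 with array weights, 0 with brightness as a covariate (0 by limma in either direction) and 4 without later exercise replicates 3 and 5. The other alternatives gave 13 to 24. With the replicate block it was 52, but same-numbered rats did not deviate together, with correlations of -0.373 to 0.361 over 42 pairs and 15 above 0.1. Leaving out 1 array gave 0 to 60 calls. It gave 1 without early exercise replicate 5 or sedentary replicate 4 or 6 of 9 weeks, 5 without early exercise replicate 7 or later exercise replicate 2, 6 and 7 without early exercise replicates 4 and 3, 8, 9 and 10 without later exercise replicates 5 and 6 and sedentary replicate 5 of 24 weeks, and 29, 31 and 33 without sedentary replicates 1 and 7 of 9 weeks and later exercise replicate 1. All 16 kept their sign in each of these, which their choice from these same arrays largely fixes. For the training by age interaction at the study's thresholds, 766 became 372 without background correction and 4281 (8 higher) with a common median. The 1027 calls of the shared training response became 1916 with a common median, 1558 with chip as a block, 357 with brightness and 55 with the length score as a covariate. The causes were not tested.

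Of the values of named genes, 879 kept direction and side of the threshold, 65 fell short of it, 47 newly passed and 23 changed sign. With a common median these were Msrb2 (-0.093), RT1-Ba (-0.054), Acads (-0.10), Cd74 (-0.0061), RT1-A1 (-0.024), Igfbp6 (-0.21), Sod3 (-0.15), RT1-Da (-0.16), Ndufs7 (-0.17), Col3a1 (-0.063), Gstp1 (-0.28), Card19 (-0.38), Rhoa (-0.29), Rangrf (-0.37), Dynlt1 (-0.58) and Actb probes ILMN_2038798 (-0.034), ILMN_1355039 (-0.16) and ILMN_2038799 (-0.30). Read against the shift of -0.35, Card19, Rangrf and Dynlt1 alone stayed below it. With brightness as a covariate they were Rangrf (-0.0014), ILMN_2038799 (-0.013) and Dynlt1 (-0.12), with the length score Dynlt1 (-0.10), and without later exercise replicates 3 and 5 ILMN_2038799 (-0.044). Probes detected on few arrays of a group, such as Ppargc1b, Slc4a4 and Pgf after later exercise, have little signal over background there.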
